A study of Saccharomyces cerevisiae with 4 samples.

Results

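The 9 genes described here encode the chaperones, thiol oxidoreductases and signalling proteins that fold secretory proteins in the endoplasmic reticulum (ER) of budding yeast and sense their misfolding. They were chosen by their systematic names (KAR2, LHS1, JEM1, SCJ1, PDI1, EUG1, ERO1, IRE1 and HAC1), which were matched to 9 of the 7127 features in the count files. Messenger RNA of Saccharomyces cerevisiae BY4741, a haploid laboratory strain of the S288C background (MATa with his3-1, leu2-0, met15-0 and ura3-0), was compared with RNA of the same strain carrying YJR066w::kanMX4, a replacement of TOR1 by a kanamycin-resistance cassette. Both strains carry the auxotrophic alleles, and both were harvested in logarithmic growth in minimal glucose medium with ammonium sulfate, histidine, leucine, methionine and uracil. There were 2 Ion Torrent libraries per strain, each titled with a time of 4 h. TOR1 encodes a kinase of TOR complex 1, and the related kinase Tor2 can also serve in that complex, so the deletion strain is not a strain without the complex. Neither clone numbers nor separate cultures are recorded in the labels, so the p-values cover the spread between the libraries at hand, and that spread may be technical.

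Secretory proteins enter the ER unfolded. There the Hsp70 chaperone Kar2 binds them, J proteins and nucleotide exchange factors drive its cycle, and Pdi1 forms their disulfide bonds with oxidising power from Ero1. When unfolded proteins accumulate, the membrane sensor Ire1 cuts HAC1 messenger RNA, tRNA ligase joins the exons, and the Hac1 protein made from the spliced message activates genes for folding, transport and degradation. This programme is the unfolded protein response, and KAR2, PDI1, EUG1, ERO1, LHS1, JEM1 and SCJ1 are among its known targets.

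The libraries held 8060480 to 14446057 counts, where 3 counts, the limit that a count of 0 allows, equal 0.208 to 0.372 CPM (counts scaled to a common library total). TOR1 was counted 635 and 357 times in wild-type libraries and 0 and 1 times in deletion libraries. LEU2, URA3 and MET17 (MET15) had at most 3 counts in any library, and the MATa gene STE2 stood at 879 to 1500 CPM against 2.59 to 10.9 CPM for the MATα gene STE3. Levels below are CPM after scaling with TMM factors, which balance the libraries on most genes. Changes are log2 fold changes of the deletion over the wild type ± SE from 2 libraries per strain. A gene is called when its Benjamini-Hochberg adjusted p in the edgeR quasi-likelihood test is below 0.05.

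Of the 9 genes, all of which passed the low-count filter, 1 rose and 3 fell in the tor1 deletion. PDI1, which encodes protein disulfide isomerase, rose 2.04-fold. JEM1 and SCJ1, for J proteins of the ER lumen, and EUG1, for a relative of Pdi1, fell. The remaining 5, KAR2, LHS1, ERO1, IRE1 and HAC1, did not pass the test. Among all 6197 tested features 51.8% were called, 26.9% higher and 24.9% lower, so that the number of calls among these genes is near that of the transcriptome. With TMM scaling the strains did not overlap for any of the 9 genes, against 78.9% of all features. Overlap depends on the scaling and was listed for TMM only. Their median log2 fold change was -0.46, against -0.0195 over all tested features.

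**Figure D1:**
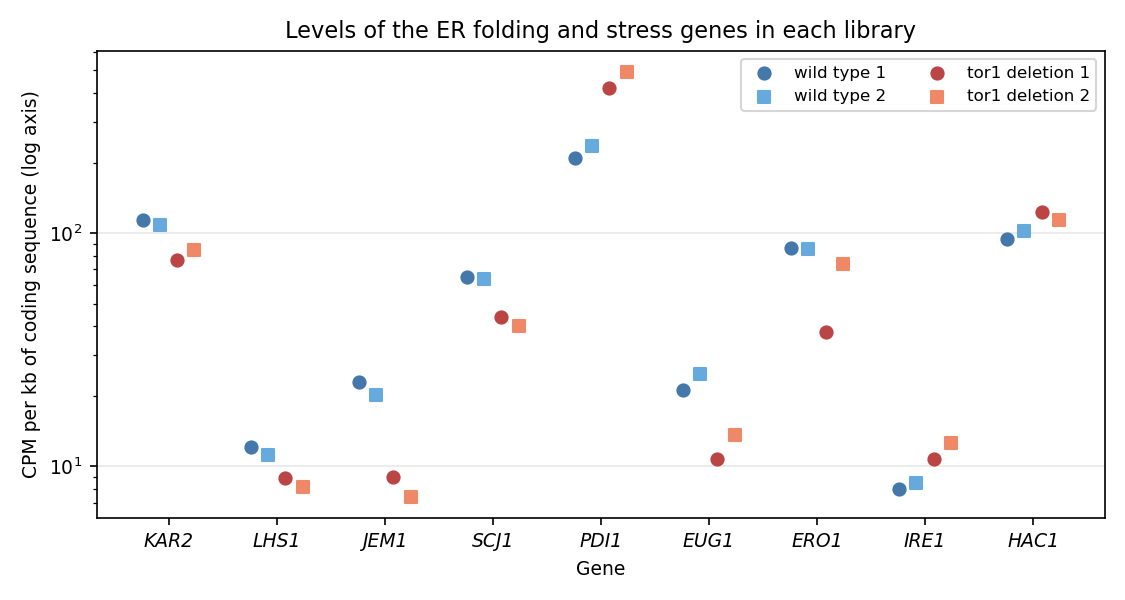
Level of each of the 9 genes in each of the 4 libraries, as CPM per kilobase of coding sequence on a log axis; blue points are wild-type libraries, and red and orange points tor1 deletion libraries, circles library 1 and squares library 2. PDI1 lies highest in every library and is the one gene called higher, and with TMM scaling the points of the strains are separate for all 9 genes.

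KAR2 (YJL034W, chromosome X of the R64 assembly, 381327 to 383375, plus strand, a single coding exon) encodes the ER Hsp70, which also takes part in import into the ER and in nuclear fusion. It was at 234 and 222 CPM in the wild type and at 157 and 174 CPM in the deletion. Both deletion libraries lay below both wild-type libraries, and the difference of -0.46 ± 0.17 missed the threshold narrowly (adjusted p = 0.0505, 95% interval -0.86 to -0.07, unadjusted for the number of genes). LHS1 (YKL073W, chromosome XI, 296430 to 299075, plus strand, a single coding exon) encodes an Hsp70-related nucleotide exchange factor of Kar2. It went from 32.2 and 29.7 CPM to 23.7 and 21.6 CPM, again without overlap, with a difference of -0.45 ± 0.20 and an adjusted p of 0.0947 (interval -0.93 to 0.02). The ratio of KAR2 to LHS1 per coding length was 9.38 and 9.65 in wild-type libraries against 8.55 and 10.4 in deletion libraries, so the wild-type values lay between those of the deletion. The side of the threshold on which KAR2 falls depended on the settings. Among other settings, it was called lower with limma-voom (adjusted p = 0.0476) and with the edgeR likelihood ratio test (0.0464). KAR2 was at -0.38 without deletion library 1 and at -0.54 without deletion library 2, and LHS1 was at -0.51 and -0.38. A strain left with 1 library takes its spread from the other strain, so these values are given as estimates only.

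JEM1 (YJL073W, chromosome X, 303181 to 305118, plus strand, a single coding exon) encodes a J protein that stimulates Kar2 and acts with it in nuclear fusion. It had 44.7 and 39.3 CPM in the wild type and 17.4 and 14.4 CPM in the deletion. This was the steepest fall of the 9 genes, at -1.41 ± 0.21 (adjusted p = 0.00199), and it was called under each of the 15 alternative settings. SCJ1 (YMR214W, chromosome XIII, 695350 to 696483, plus strand, a single coding exon) encodes a second luminal J protein, which helps fold and dispose of ER proteins. It fell from 73.5 and 72.1 CPM to 49.6 and 45.6 CPM, by 0.61 ± 0.17 on the log2 scale (adjusted p = 0.0194). Without wild-type library 1 or 2 the value of SCJ1 was -0.59 or -0.62 and the call was lost (adjusted p = 0.234 and 0.208). Per coding length, the ratio of KAR2 to JEM1 was 4.96 and 5.34 in wild-type libraries against 8.54 and 11.4 in deletion libraries. The ratio of KAR2 to SCJ1 was 1.76 and 1.70 in wild-type libraries against 1.75 and 2.11 in deletion libraries, with overlap.

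PDI1 (YCL043C, chromosome III, 48653 to 50221, minus strand, a single coding exon) was the one member that rose. It had 329 and 372 CPM in the wild type and 658 and 772 CPM in the deletion, a change of 1.03 ± 0.20 (adjusted p = 0.00474, interval 0.57 to 1.49). EUG1 (YDR518W, chromosome IV, 1478608 to 1480161, plus strand, a single coding exon), whose product resembles Pdi1 and can partly stand in for it when overproduced, moved the other way. It fell from 33.0 and 38.7 CPM to 16.7 and 21.3 CPM, by 0.91 ± 0.22 (adjusted p = 0.0132). Within a library, PDI1 exceeded EUG1 per coding length by 9.88 and 9.50 times in the wild type and by 39.1 and 36.0 times in the deletion. No test was made of such ratios, since an exact permutation test of 2 against 2 libraries cannot go below p = 0.333. The direction of each was the same under all 15 alternatives. The call of PDI1 was lost without wild-type library 1 (0.95, adjusted p = 0.0789), and that of EUG1 without wild-type library 1 (-1.02, adjusted p = 0.0571) or 2 (-0.79, adjusted p = 0.159). Their longest nucleotide match covered 310 bases at 65.8% identity, below the 90% set for a near-identical copy. None of the 9 genes had such a copy or overlapped another annotated gene. Overlap with counted features that lack an entry in the annotation was not checked, and 6047 of the 7127 features had one.

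The proteins also differ at their catalytic sites, and the coding sequences are printed because they show that difference. A link between these sites and the changes in RNA was not tested. The stretches are 33 bases of the coding strand of R64 around each active site, with the codons of the paired catalytic positions in capitals. Pdi1 has a cysteine codon at both positions of each site, while Eug1 has a cysteine codon first and a serine codon second. Codons are numbered from the start codon.
PDI1 site 1, codons 61 and 64, chrIII:50021-50053, minus strand: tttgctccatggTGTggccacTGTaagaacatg
PDI1 site 2, codons 406 and 409, chrIII:48986-49018, minus strand: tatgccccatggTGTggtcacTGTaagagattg
EUG1 site 1, codons 62 and 65, chrIV:1478779-1478811, plus strand: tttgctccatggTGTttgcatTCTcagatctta
EUG1 site 2, codons 405 and 408, chrIV:1479808-1479840, plus strand: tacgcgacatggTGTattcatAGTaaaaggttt

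ERO1 (YML130C, chromosome XIII, 11483 to 13174, minus strand, a single coding exon) encodes the flavoprotein oxidase that reoxidises Pdi1. It had 146 and 145 CPM in the wild type, and 63.9 and 125 CPM in deletion libraries 1 and 2. The deletion libraries lay below the wild type but far apart from each other, and the difference of -0.62 ± 0.30 did not pass (adjusted p = 0.119, interval -1.33 to 0.08). The size of the difference rested on the library. It was -1.18 without deletion library 2 and -0.21 without deletion library 1. The ratio of PDI1 to ERO1 per coding length was 2.43 and 2.77 in wild-type libraries against 11.1 and 6.69 in deletion libraries, higher in both deletion libraries.

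**Figure D2:**
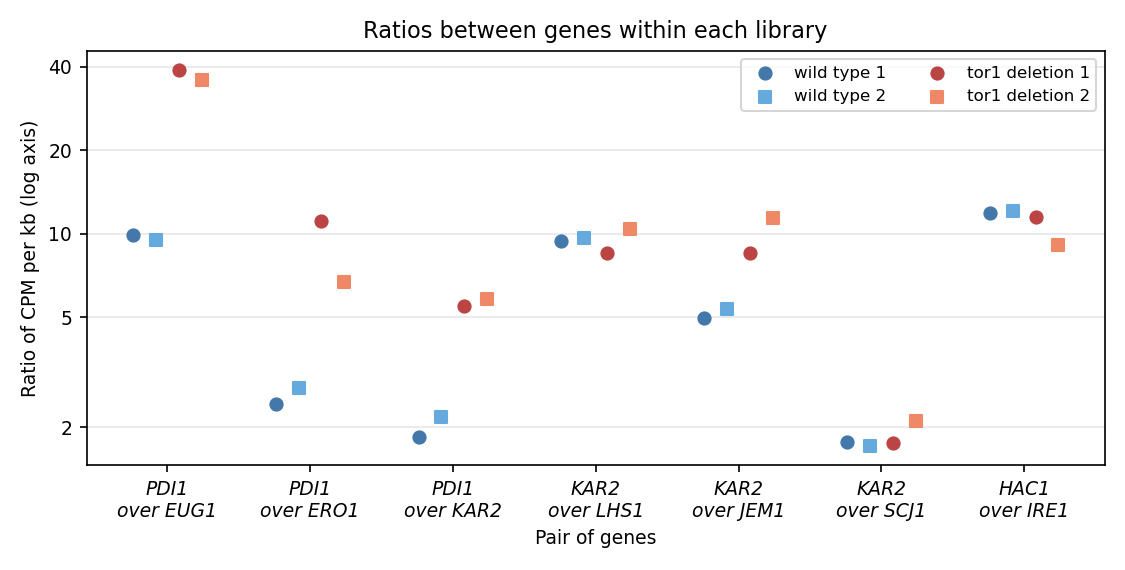
Ratios between pairs of the genes within each library, computed from CPM per kilobase of coding sequence and drawn on a log axis, with the same symbols for strains and libraries. PDI1 over EUG1 lies at 9.50 and 9.88 in the wild type and at 36.0 and 39.1 in the deletion, while KAR2 over LHS1 and KAR2 over SCJ1 overlap between strains.

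IRE1 (YHR079C, chromosome VIII, 258244 to 261591, minus strand, a single coding exon) encodes the kinase and endoribonuclease that starts the response. It had 26.7 and 28.5 CPM in the wild type and 36.1 and 42.0 CPM in the deletion. With TMM scaling the deletion libraries were higher without overlap, and the difference of 0.50 ± 0.19 did not pass (adjusted p = 0.0649, interval 0.04 to 0.96). The difference was 0.62 without deletion library 1 and 0.39 without deletion library 2. HAC1 (YFL031W, chromosome VI, 75179 to 76147, plus strand) encodes the transcription factor of the response. It had 68.1 and 73.5 CPM in the wild type and 88.6 and 82.0 CPM in the deletion. The difference of 0.27 ± 0.16 did not pass (adjusted p = 0.206, interval -0.12 to 0.66). It was 0.22 without deletion library 1 and 0.33 without deletion library 2. The ratio of HAC1 to IRE1 per coding length was 11.9 and 12.1 in wild-type libraries against 11.5 and 9.12 in deletion libraries, lower in both deletion libraries.

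The count of HAC1 says nothing of its splicing, the step at which the response is switched on, because the files hold 1 count per gene and library. The annotation places exons of 661 and 56 coding bases around an intron of 252 bases (75840 to 76091). Whether reads in that intron were counted is a detail not given in the sources used here. The junctions that Ire1 cuts are printed because they mark the switch, with exon bases in capitals and intron bases in lower case.
HAC1 exon 1 to intron, chrVI:75825-75854, plus strand: ATTGGCGTAATCCAGccgtgattacgatga
HAC1 intron to exon 2, chrVI:76077-76106, plus strand: tgcttgtactgtccgAAGCGCAGTCAGGTT
The count files also list the features YFL032W and YFL031C-A, whose names place them beside HAC1 and which have no entry in the annotation used here. YFL032W had 22, 11, 6 and 10 counts and YFL031C-A had 49, 39, 26 and 75, the wild-type pair being given first. Whether they share bases with HAC1 was not checked.

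The direction of HAC1 also rested on the scaling. With library totals or upper quartile factors in place of TMM, the median log2 fold change of all features moved by -0.33 and -0.39, and HAC1 was at -0.059 and -0.13, neither of them called. Taken relative to the median of all features, HAC1 lay at 0.29 in all 3 scalings. This follows from the arithmetic, since other library factors move all features by about the same amount, and it does not show which scaling is right. PDI1 rose by 0.71 and 0.63 under these scalings, and IRE1 was at 0.18 and 0.11 and not called. With either scaling 6 of the 9 genes fell, as KAR2, LHS1 and ERO1 joined JEM1, SCJ1 and EUG1. Among all features, 19.0% were then higher and 37.6% lower with library totals, and 17.9% higher and 40.5% lower with upper quartile factors.

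**Figure D3:**
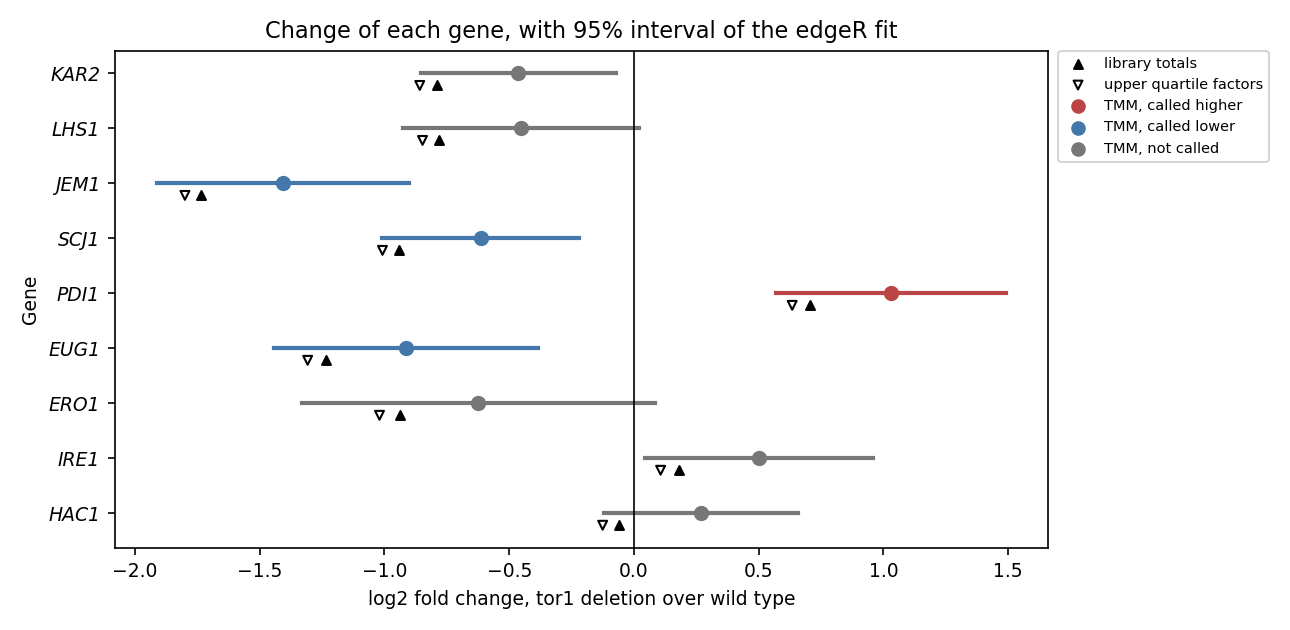
Log2 fold change of each gene, tor1 deletion over wild type, with the 95% interval of the edgeR fit under TMM scaling; red marks a gene called higher, blue called lower and grey not called, and triangles give the estimates with library totals (filled) and upper quartile factors (open). JEM1 lies lowest, at -1.41 and PDI1 highest at 1.03, and both triangles of HAC1 lie below 0 while its TMM estimate is 0.27.

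Per kilobase of coding sequence, which allows genes to be set against each other, PDI1 was the most abundant message in both strains, at 223 ± 19.0 CPM per kilobase (SD, n = 2) in the wild type and 456 ± 51.4 in the deletion. In the wild type KAR2 came next (111 ± 4.16), then HAC1 (98.8 ± 5.38), ERO1 (86.0 ± 0.618) and SCJ1 (64.2 ± 0.827). EUG1 (23.1 ± 2.61) and JEM1 (21.7 ± 1.95) overlapped between libraries, and LHS1 (11.7 ± 0.667) and IRE1 (8.25 ± 0.374) stood last. In the deletion HAC1 (119 ± 6.54) lay above KAR2 (80.7 ± 5.82) in both libraries. ERO1 (55.7 ± 25.3) overlapped with SCJ1 (42.0 ± 2.47) there, and EUG1 (12.2 ± 2.09) with IRE1 (11.7 ± 1.26). JEM1 (8.20 ± 1.09) and LHS1 (8.56 ± 0.566) were lowest and overlapped. The value of HAC1 assumes the spliced coding length of 717 bases, and its place in the order of both strains rests on that length. A length that includes the intron of 252 bases would lower the value, and the order with that length was not computed. In all, the 9 genes took 0.112% and 0.113% of the counts in wild-type libraries against 0.0960% and 0.120% in deletion libraries.

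Binding sites for Hac1 were looked for in the 250 bases before each start codon, because most of the 9 genes are known targets of that factor. The letters searched were CAGCGTG, the core of the unfolded protein response element of KAR2, and TACGTG, the core of a second class of Hac1 site, on both strands. They do not overlap each other in these windows. CAGCGTG was present before KAR2 and LHS1, against 0.997% of the 6020 protein-coding genes with a full window. TACGTG was present before EUG1 and ERO1, against 6.96% of those genes, and either motif was present before 4 of the 9 genes, against 7.87%. Windows of the 4 genes are shown 5′ to 3′ on the coding strand of R64, with the motif or its reverse complement in capitals.
KAR2, chrX:381077-381326, plus strand: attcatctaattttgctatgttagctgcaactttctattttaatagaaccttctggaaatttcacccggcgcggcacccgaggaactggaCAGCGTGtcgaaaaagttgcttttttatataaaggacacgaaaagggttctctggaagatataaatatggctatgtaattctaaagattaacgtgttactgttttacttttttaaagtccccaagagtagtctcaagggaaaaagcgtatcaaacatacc
LHS1, chrXI:296180-296429, plus strand: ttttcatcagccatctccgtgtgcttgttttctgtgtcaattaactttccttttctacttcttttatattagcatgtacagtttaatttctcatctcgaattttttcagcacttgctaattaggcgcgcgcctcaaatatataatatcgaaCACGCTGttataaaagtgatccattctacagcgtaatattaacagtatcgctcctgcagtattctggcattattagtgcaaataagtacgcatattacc
EUG1, chrIV:1478358-1478607, plus strand: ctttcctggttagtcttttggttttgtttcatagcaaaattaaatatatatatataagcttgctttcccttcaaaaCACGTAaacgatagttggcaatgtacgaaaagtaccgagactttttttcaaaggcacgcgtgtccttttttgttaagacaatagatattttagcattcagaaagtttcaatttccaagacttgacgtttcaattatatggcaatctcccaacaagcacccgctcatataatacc
ERO1, chrXIII:13175-13424, minus strand: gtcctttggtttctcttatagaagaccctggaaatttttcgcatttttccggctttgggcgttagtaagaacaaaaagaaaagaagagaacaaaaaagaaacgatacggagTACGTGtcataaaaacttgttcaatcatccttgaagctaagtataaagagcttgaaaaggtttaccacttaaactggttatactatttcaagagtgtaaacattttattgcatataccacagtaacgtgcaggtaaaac
The motif began 160 bases before the start codon of KAR2, 99 before that of LHS1, 174 before that of EUG1 and 139 before that of ERO1. The 4 genes had log2 fold changes of -0.46, -0.45, -0.91 and -0.62, of which that of EUG1 was called. The other 5, without these letters in the window, ranged from -1.41 (JEM1) to 1.03 (PDI1). A match is a description of letters and was not tested as a site.

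The other genes of ER folding and secretion were described from 10 lists of 97 genes, none of them a member, all tested. Of these 17 rose and 20 fell, which is 17.5% and 20.6% against 26.9% and 24.9% of all features, with a median of 0.057. The count moved with the libraries and the scaling: 8 rose and 6 fell without wild-type library 1, 9 and 9 without wild-type library 2, 31 and 34 without deletion library 1, and 25 and 27 without deletion library 2, while 10 rose and 35 fell with library totals and 10 and 36 with upper quartile factors. For all features, 1045 rose and 915 fell without wild-type library 1, 1073 and 939 without wild-type library 2, 2281 and 2179 without deletion library 1, and 2002 and 1951 without deletion library 2, against 1665 and 1543 with all libraries.

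Of the partners of Ire1 1 of 2 was called, and of those of Kar2 1 of 3, against 51.8% of all features. TRL1, the tRNA ligase that joins the HAC1 exons, fell from 17.4 and 12.7 CPM to 6.89 and 4.97 CPM, by 1.36 ± 0.30 (adjusted p = 0.0092). PTC2, a phosphatase that acts on Ire1, was at 0.55 ± 0.20 and did not pass (adjusted p = 0.0535). Among the partners of Kar2, SEC63, the J protein of the import channel, fell by 0.87 ± 0.27 (adjusted p = 0.0321). ERJ5, a J protein of the ER membrane, was at -0.40 ± 0.20, and SIL1, a nucleotide exchange factor, at 0.092 ± 0.31, and neither passed. The deletion libraries of SIL1 were far apart, at 19.0 and 36.4 CPM, as those of ERO1 were. Without wild-type library 1, TRL1 (-1.10) and SEC63 (-0.71) lost their calls. Without deletion library 1, PTC2 was at 0.77, SIL1 at 0.49 and ERJ5 at -0.45, and without deletion library 2 PTC2 was at 0.32. SIL1 was at -0.46 without deletion library 2, and ERJ5 was called lower under both other scalings (-0.73 and -0.80).

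Of the other ER thiol oxidoreductases, 2 of 4 rose, against 26.9% of all features. MPD1, a relative of Pdi1, went from 19.5 and 19.6 CPM to 47.1 and 45.6 CPM, a rise of 1.25 ± 0.19 (adjusted p = 0.00187). ERV2, a flavin-linked oxidase that works independently of Ero1, went from 35.7 and 40.7 to 92.4 and 76.0 CPM, a rise of 1.14 ± 0.19 (adjusted p = 0.00278). Both genes were called higher under all 15 alternatives, and the strains did not overlap. EPS1, a membrane-bound relative of Pdi1, was at 0.54 ± 0.20 (adjusted p = 0.0553), and MPD2, another relative, at -0.15 ± 0.16. EPS1 was at 0.71 without deletion library 1, and MPD2 was called lower with library totals (-0.48) and upper quartile factors (-0.54). None of the 4 genes on the list of prolyl isomerases and further response genes passed, while 51.8% of all features were called. FPR2 and CPR5, prolyl isomerases of the ER, were at 0.31 ± 0.16 and 0.34 ± 0.19, and INO1, the inositol phosphate synthase gene, was at 0.38 ± 0.17. ULI1, a small gene induced by the response, was at -0.065 ± 0.26. Without deletion library 1, FPR2 was at 0.35 and INO1 at 0.43, and without deletion library 2, CPR5 was at 0.44 and INO1 at 0.33.

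Of 8 glycoprotein quality control genes 3 fell, which is 37.5% against 24.9% of all features. They were ROT2, a subunit of glucosidase II (-1.60 ± 0.17), and CWH41, glucosidase I (-0.96 ± 0.21). The third was HTM1, a mannosidase that marks glycoproteins for disposal, listed as MNL1 in the annotation (-1.60 ± 0.21). YOS9, a lectin of the degradation pathway, was at 0.32 ± 0.26 and did not pass, and was at 0.59 without deletion library 1. Among 6 protein O-mannosyltransferase genes 4 fell, which is 66.7% against 24.9% of all features. PMT4 was at -1.73 ± 0.24, PMT2 at -0.90 ± 0.23, PMT5 at -0.77 ± 0.21 and PMT6 at -0.53 ± 0.18. Without wild-type library 1 or 2, PMT2, PMT5 and PMT6 lost their calls. Without these libraries PMT2 was at -0.97 and -0.81, PMT5 at -0.62 and -0.89 and PMT6 at -0.37 and -0.67. PMT6 was not called with DESeq2, the replicate block or the authors' table either. In N-glycosylation 5 of 22 genes fell and 2 rose. These are 22.7% and 9.09%, against 24.9% and 26.9% of all features, so that the share of falls is near that of the transcriptome. ALG5, which makes the glucose donor of the glycan, was the steepest fall, at -1.94 ± 0.27 (adjusted p = 0.00146), and ALG2, a mannosyltransferase, by 0.93 ± 0.19. ALG13, part of a transferase whose other part is ALG14, rose by 0.99 ± 0.17, while ALG14, named after its value was seen, fell by 1.03 ± 0.30. ALG9, a mannosyltransferase, rose by 0.75 ± 0.19 with TMM but was not called with library totals (0.43) or upper quartile factors (0.35). Without wild-type library 1, ALG13 (0.91), ALG2 (-0.81) and ALG9 (0.88) lost their calls, and without wild-type library 2 ALG9 (0.65) did. N-glycosylation genes called numbered 0 higher and 1 lower without wild-type library 1, 1 and 2 without wild-type library 2, 5 and 9 without deletion library 1, 3 and 7 without deletion library 2, and 1 higher with 8 or 9 lower under the other scalings.

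Entry into the ER gave 6 falls and no rise among 20 genes, with a median of -0.17. The falls were 30.0% of the list, near the 24.9% of all features, of which 26.9% rose. SPC1, of the signal peptidase, fell by 1.33 ± 0.29, YKL154W, of the receptor of the signal recognition particle, by 0.76 ± 0.17, SRP68, of the particle itself, by 0.79 ± 0.22, and SBH1, of the Sec61 channel, by 0.58 ± 0.17. SEC61, which encodes the channel itself and is named after its value was seen, was at -0.097 ± 0.20 and did not pass. Without wild-type library 1 or 2, only 1 gene of this list fell, SPC1, while SRP68 (-0.67 and -0.88) and SBH1 (-0.57 and -0.58) were not called. Without deletion library 1, 11 fell and 3 rose, and without deletion library 2, 7 fell and 3 rose. The number of falls among all features also moved with the library left out, as given above. Under library totals, as under upper quartile factors, 10 genes of this list fell, when 37.6% and 40.5% of all features fell.

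Of 13 genes of ER-associated degradation, which returns misfolded proteins to the cytosol for the proteasome, 7 rose, with a median of 0.74. These 7 were 53.8% of the list, against 26.9% of all features. CDC48, the ATPase that extracts proteins from the membrane, went from 353 and 350 CPM to 821 and 1009 CPM, a rise of 1.38 ± 0.20 (adjusted p = 0.00172). DER1, of the export channel, rose by 1.13 ± 0.20, HRD1, the ubiquitin ligase, by 1.26 ± 0.22, and UFD1, a cofactor of Cdc48, by 1.04 ± 0.19. The other 6 did not pass. In either other scaling, and without wild-type library 1 or 2, 5 of these genes rose and none fell, while 8 rose and 1 fell without deletion library 2. Of 15 genes of COPII vesicles and their cargo receptors, which carry folded proteins out of the ER, 6 rose and none fell with TMM, but 2 rose and 5 fell in each of the other scalings. ERV14, a cargo receptor, rose by 1.11 ± 0.17, and the coat genes SEC13, SEC24 and SEC23 by 0.86 ± 0.16, 0.73 ± 0.16 and 0.68 ± 0.17. SEC24 and SEC23 were not called with either other scaling. Without wild-type library 1 or 2, only 1 COPII gene rose, ERV14. SEC13 was then at 0.85 and 0.89, SEC24 at 0.77 and 0.71 and SEC23 at 0.61 and 0.76. Without deletion library 1, 2 COPII genes fell, and without deletion library 2, 3 fell.

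**Figure D4:**
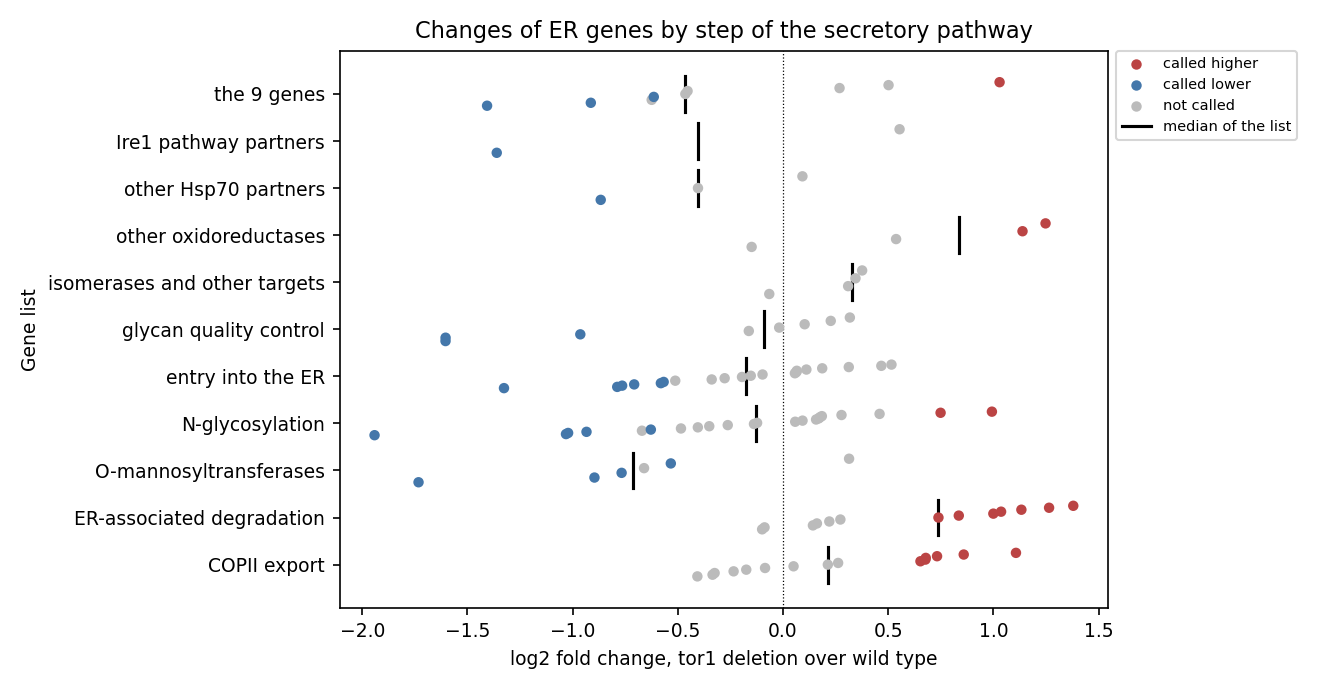
Log2 fold change, tor1 deletion over wild type, of every gene of the 9 and of the 10 further lists (rows), with 1 point per gene, red called higher, blue called lower and grey not called; black bars are list medians. The medians run from -0.71 for the O-mannosyltransferases to 0.84 for the other oxidoreductases, and among the 9 genes 1 point is red and 3 are blue.

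Genes whose pattern over the 4 libraries was closest to that of KAR2, by the distance between log2 CPM values centred on their mean, were ARN1, AVO1 and PPX1. Their distances were 0.0304, 0.0352 and 0.0368, against a median of 0.897 for all other tested features. For HAC1 the closest were LEU4, TAF10 and BAP2, at 0.0360, 0.0386 and 0.0398, against a median of 0.872. With 4 libraries, 2 of each strain, such a distance mostly reflects a like difference between strains, and none of the 6 genes passed the test.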

How the data were processed

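The authors deposited, for each of the 4 libraries, raw read counts for 7127 features. FastQC, featureCounts, Subread and the build sacCer3 appear in the submitters' processing notes. Versions, annotation release and strand setting are details not given in the sources used here, and without strand overlapping features on opposite strands cannot be separated. A second table from the authors holds log10 values for 6519 genes, each proportional to the count within its library after 1 is subtracted from the back-transformed value. It entered only as an alternative, on a log2 scale with a pseudocount of 1.

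Identifiers were matched by systematic name to the R64 annotation of RefSeq, the assembly that sacCer3 denotes, and 6047 of them had an entry. Positions, coding lengths and sequences come from R64. Near-identical copies were sought with blastn 2.17.0 (at least 90% identity over at least 50% of the coding sequence). The comparison of strains used edgeR 4.0.16 (R 4.3.3) and its quasi-likelihood F test, with strain as the only term, filterByExpr (6197 features kept), TMM factors and Benjamini-Hochberg adjustment over all tested features at a threshold of 0.05. The test was tried first on simulated counts with as many rises as falls. That trial does not bear on the choice of scaling for these libraries. Each SE was obtained from the log2 fold change and the F statistic, and 95% intervals use the degrees of freedom of that test. The alternatives were limma-voom (limma 3.58.1), DESeq2 1.42.0, a likelihood ratio test in edgeR, RLE and upper quartile factors, library totals, 2 other low-count filters, protein-coding genes only, a replicate block, the deposited log10 table, and omission of each library in turn.

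The members and the lists were chosen with earlier results of these data known. Named genes were the 9 members, 6 strain checks, all genes of the 4 short folding lists, the 4 genes with the smallest p of each other list, and the 3 genes closest to KAR2 and to HAC1. Further called genes of a list were named after their values were seen. Amplified reads carry no molecular identifiers, so counting limits cover counting error only.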

Additional observations from a re-analysis of the deposited data

How the results depend on the processing

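With upper quartile factors and library totals 6 of the 9 genes fell in place of 3, 10 pathway genes rose in place of 17, 36 and 35 fell in place of 20, and 2508 and 2328 features fell in place of 1543. KAR2 was called lower at -0.86 (upper quartile), -0.79 (library totals), -0.46 (likelihood ratio test and limma-voom), -0.49 (at least 50 counts in 2 libraries) and -0.49 (protein-coding genes only), LHS1 at -0.85 and -0.78 and ERO1 at -1.02 and -0.94 (upper quartile and library totals), and HAC1 turned to -0.13 and -0.059. Leaving out each library gave 0 to 2 of the 9 genes higher and 1 to 5 lower, 8 to 31 pathway genes higher and 6 to 34 lower, and 1045 to 2281 features higher and 915 to 2179 lower. The values then ranged from -0.54 to -0.38 for KAR2, -0.51 to -0.38 for LHS1, -1.54 to -1.27 for JEM1, -0.66 to -0.55 for SCJ1, 0.91 to 1.15 for PDI1, -1.10 to -0.74 for EUG1, -1.18 to -0.21 for ERO1, 0.39 to 0.62 for IRE1 and 0.22 to 0.33 for HAC1. A strain left with 1 library is assumed there to vary like the other strain. The cause was not tested.

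With the replicate number as a block ERO1 was called lower at -0.70 (adjusted p = 0.0111), and no other call among the 9 genes changed. The labels do not say that the numbers pair the libraries, and the deviations of same-numbered libraries from their strain's mean correlated at -0.066. Of the 37 named pathway genes, 555 comparisons with an alternative gave 11 changes of sign, none of a called gene: SIL1 (-0.30 with upper quartile factors, -0.22 with library totals), FPR2 (-0.085 and -0.015 with these scalings), and CPR5 (-0.049), INO1 (-0.018) and YOS9 (-0.078) with upper quartile factors. With 1 library left out, SIL1 ranged from -0.46 to 0.49, YOS9 from -0.0066 to 0.59 and ULI1 from -0.21 to 0.094, and ULI1 was above 0 without wild-type library 2 (0.050) as well. A window of 500 bases in place of 250, chosen after seeing the data, left the motifs before 4 of the 9 genes, while the share of all protein-coding genes with either motif went from 7.87% to 14.9%. Depth limits the weakest members little, since each had at least 116 counts in every library, far above the 3 counts that a count of 0 allows, while 2 libraries per strain limit every test.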

Other observations

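The protein-coding genes next to the 9 genes on the chromosomes, a set added after the data were seen, were 18, of which 7 rose and 6 fell. Of all tested features 26.9% rose and 24.9% fell, and a link between a gene and its neighbours was not tested. PDI1 lies between MGR1, 288 bases beyond its stop codon, which rose by 1.51 ± 0.24, and YCL042W, which rose by 2.64 ± 0.53 from 0.477 to 3.24 CPM. The wild-type libraries held 11 and 3 counts of YCL042W, the second at the 3 counts that a count of 0 allows, so the size of its rise is uncertain. EUG1, which fell, starts 250 bases after GRH1, a Golgi protein gene that rose from 147 to 633 CPM (2.10 ± 0.21). ERO1 lies between YML131W and COX14, a gene of cytochrome c oxidase assembly, which rose by 1.10 ± 0.16 and 1.26 ± 0.27. JEM1, which fell most, is flanked by SMC3, a cohesin subunit gene, and PSF2, a replication gene, which fell by 1.97 ± 0.30 and 1.25 ± 0.24, and the genes on either side of KAR2, TAD2 and HCA4, fell by 0.87 ± 0.24 and 1.65 ± 0.22. SCJ1, which fell, follows CEF1, a splicing factor gene that rose by 0.51 ± 0.17, and precedes GAS3, which fell by 1.51 ± 0.28. Beside LHS1, MUD2 fell by 0.69 ± 0.20 and STB6 did not pass. Among the neighbours of IRE1 and HAC1, AGX1 rose by 0.85 ± 0.17 and RIM15, YHR078W and SAE3 did not pass. These calls come from the TMM fit with all libraries, and the alternatives were not computed for neighbours that are on no list.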
